A study of Homo sapiens with 3 samples.

Results

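Metallothioneins are small cysteine-rich proteins that bind zinc, copper and cadmium, and the 10 genes described here are 7 of them (MT1E, MT1F, MT1G, MT1H, MT1M, MT1X and MT2A) with 3 genes that set the zinc level of a cell. The members were taken by gene symbol, from a list drawn up with earlier results of these data known. They made up 10 of 19775 genes that had a probe set of their own on the arrays, and 18 of 54675 probe sets. None of the 18 probe sets was annotated to more than 1 gene. After the floor on low signal explained below, 9 of the 10 were measured, and MT1M was the exception.

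The cells were of the established line NCI-H1650, derived from a human lung adenocarcinoma, and the agent was colossolactone H, a triterpenoid from a Ganoderma fungus. One array held cells exposed to 40 μM for 12 h, a second held cells exposed to 40 μM for 24 h, and the other held control cells whose collection time and vehicle the labels do not state. Cells of every group grew in the same RPMI medium with 10% fetal calf serum, penicillin, streptomycin and amphotericin B. With 1 array in each of 3 groups, no difference below has an error or a p-value, and each describes these 3 arrays only.

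Zinc in a cell is buffered by metallothioneins, let out by exporters of the SLC30 (ZnT) family and let in by importers of the SLC39 (ZIP) family. MTF1 is the zinc-sensing transcription factor of this system. When zinc rises it binds metal response elements in the promoters of metallothionein genes and of SLC30A1, the exporter of the plasma membrane, and turns them on, and in mouse cells it holds down Slc39a10, an importer. Metallothionein genes also answer to glucocorticoids and oxidative stress.

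Signals are the linear MAS5 values as deposited, whose trimmed mean was the same on every array. Values under 61.4, the 50th percentile of all signals, were treated as lying at a floor, and 12351 genes exceeded it on at least 1 array and count as measured. Each gene is represented by its brightest probe set of its own, and differences are log2 of the first-named array over the second. The 6 epithelial markers EPCAM, CDH1, KRT7, KRT8, KRT18 and KRT19 lay between 1120 and 23650 signal units on all arrays. No leukocyte marker with a probe set of its own (CD14, CD3E, PTPRC) reached the floor, and of 5 fibroblast and endothelial markers COL1A1, COL3A1 and PECAM1 did.

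The RefSeq promoters of MT2A, MT1H, MT1X and SLC30A1 are printed. These are the members found to hold 2 or more matches to the core of the metal response element. No promoter window was available for MT1E, MT1F, MT1G and MT1M. Each runs 5′ to 3′ on the gene's own strand from 250 bases before the start of transcription to 50 bases after it (RefSeq, GRCh38.p14). Capitals mark the core of the metal response element, TGCACNC or TGCGCNC, on either strand, where a match on the other strand reads in reverse complement.
MT2A, chr16:56608334-56608633, plus strand: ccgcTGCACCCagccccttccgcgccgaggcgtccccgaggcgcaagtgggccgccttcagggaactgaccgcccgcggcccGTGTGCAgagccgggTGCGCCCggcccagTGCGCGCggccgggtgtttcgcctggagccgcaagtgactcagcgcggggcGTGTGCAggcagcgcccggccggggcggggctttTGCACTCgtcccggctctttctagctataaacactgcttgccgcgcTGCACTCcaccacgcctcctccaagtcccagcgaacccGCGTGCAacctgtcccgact
MT1H, chr16:56669564-56669863, plus strand: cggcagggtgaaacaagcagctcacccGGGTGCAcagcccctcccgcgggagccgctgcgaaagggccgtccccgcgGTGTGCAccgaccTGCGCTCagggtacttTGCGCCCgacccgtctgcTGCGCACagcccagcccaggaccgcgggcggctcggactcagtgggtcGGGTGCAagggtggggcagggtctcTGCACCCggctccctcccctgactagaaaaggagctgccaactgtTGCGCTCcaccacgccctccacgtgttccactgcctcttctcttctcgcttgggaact
MT1X, chr16:56682220-56682519, plus strand: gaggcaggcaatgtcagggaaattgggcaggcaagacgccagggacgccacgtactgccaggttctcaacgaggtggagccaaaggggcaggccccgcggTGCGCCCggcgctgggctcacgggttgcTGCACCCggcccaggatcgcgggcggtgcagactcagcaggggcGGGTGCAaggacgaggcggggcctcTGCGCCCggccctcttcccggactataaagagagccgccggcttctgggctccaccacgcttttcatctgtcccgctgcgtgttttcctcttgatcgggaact
SLC30A1, chr1:211579112-211579411, minus strand: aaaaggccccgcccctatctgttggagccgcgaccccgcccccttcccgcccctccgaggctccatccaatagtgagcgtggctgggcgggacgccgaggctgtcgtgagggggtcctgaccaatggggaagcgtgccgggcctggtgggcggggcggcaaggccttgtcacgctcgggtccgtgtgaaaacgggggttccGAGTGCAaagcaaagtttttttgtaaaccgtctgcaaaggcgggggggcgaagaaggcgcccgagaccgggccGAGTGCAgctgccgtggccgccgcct

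The core occurred 8 times in the MT2A window, 8 times in that of MT1H, 4 times in that of MT1X and 2 times in that of SLC30A1. Of 35116 promoter windows of 300 bases, 29.6% held at least 1 match, 8.6% at least 2 and 0.601% at least 4. Windows of 2 metallothioneins that are no members, MT1B and MT4, held 3 matches each. The share of G and C was 72% for MT2A, 68.3% for MT1H, 67% for MT1X, 64.3% for MT4 and 60.3% for MT1B, against a median of 58.7% over all windows. MT1H and MT1X both had matches whose first bases lay 53 and 78 bases before the start. The core of the antioxidant response element, TGACNNNGC, was also searched on both strands, and none of its matches here overlapped the first motif. In MT2A it was found 1 time, 104 bases before the start, and 13.3% of all windows held it. MT1X and SLC30A1 held 1 match each and MT1H none. SLC39A10, with 2 annotated starts, had 1 metal response core in the window of the downstream start and none in the other, and the window of MTF1 held none. These matches describe letters and show no binding.

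MT2A, the metallothionein most often used as a readout of zinc and cadmium, was lower at 24 h and nearly level at 12 h. Its probe set 212185_x_at had 6037.9 signal units at 12 h and 3792.7 at 24 h, against 6326.6 in the control. The 24 h signal was thus 59.9% of the control's, a difference of -0.74, while the difference at 12 h was -0.07. Set against the array at 12 h, the array at 24 h was lower by 0.67. The order of the arrays was control, 12 h, 24 h, and the control and 12 h values were close together.

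MT1X, a widely expressed metallothionein, had 3116.5 signal units at 12 h and 2318.8 at 24 h, against 3721 in the control (probe set 208581_x_at). Here the 12 h array already stood lower, at -0.26, and the 24 h array stood at -0.68. A second probe set of MT1X, 204326_x_at, gave 1298 units at 12 h and 1137.9 at 24 h, against 1490.5 in the control, a smaller difference of -0.39 at 24 h.

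MT1G and MT1H, neighbours in the gene cluster, had the same order of arrays as MT1X. MT1G had 904 signal units at 12 h and 736.8 at 24 h, against 1186.1 in the control (204745_x_at), or -0.39 and -0.69. MT1H had 1202.8 units at 12 h and 889.7 at 24 h, against 1441.1 in the control (206461_x_at), or -0.26 and -0.70. MT1G had the lowest 12 h difference among the metallothioneins measured, with -0.39 of its -0.69 in place by then. The other probe set of MT1G, 210472_at, had 31.1 units at 12 h, 1.7 at 24 h and 7.4 in the control, all under the floor, so it gave no difference.

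MT1E and MT1F differed less. MT1E had 1084.9 signal units at 12 h and 930.1 at 24 h, against 1015.9 in the control (212859_x_at), which is 0.09 at 12 h and -0.13 at 24 h. Its second probe set, 216336_x_at, had 845.7 units at 12 h and 739 at 24 h, against 974.6 in the control, and so was lower at both times, at -0.20 and -0.40. The 2 probe sets of MT1E therefore disagreed in sign at 12 h.

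MT1F had 947.9 signal units at 12 h and 659.5 at 24 h, against 814.2 in the control (217165_x_at), or 0.22 at 12 h and -0.30 at 24 h. Its other probe set, 213629_x_at, had 690.8 units at 12 h and 625.2 at 24 h, against 803.5 in the control, or -0.22 and -0.36. The pair disagreed in sign at 12 h, as with MT1E, and both were lower at 24 h. MT1M, whose probe set 217546_at read 0.7 at 12 h, 2.9 at 24 h and 1 in the control, lay under the floor throughout.

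**Figure D1:**
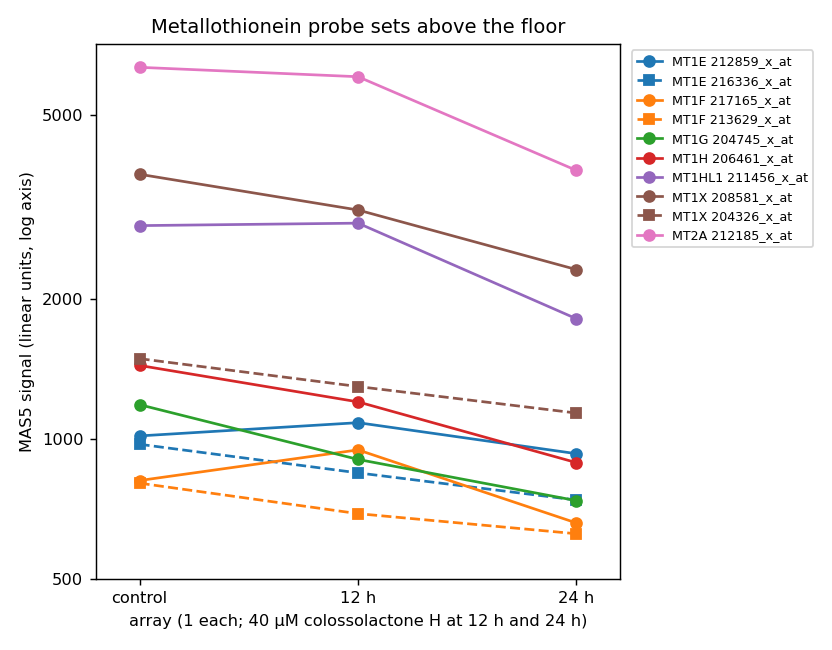
MAS5 signal (log axis) of each metallothionein probe set above the floor on the control, 12 h and 24 h arrays, 1 array each; a dashed line is the second probe set of a gene. MT2A stays near its control level at 12 h and stands at 3792.7 units at 24 h, and each line ends below its control value.

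Of the 6 metallothionein members measured, 6 were lower at 24 h than in the control, where 49.9% of measured genes were. Their median difference was -0.68, against 0.00 over all measured genes, with a range of -0.74 to -0.13. By the rule of a difference of -0.5 or lower, 4 of the 6 qualified (MT2A, MT1H, MT1G and MT1X), against 7.3% of measured genes. Of the 5569 genes whose mean signal exceeded 1000, a set without MT1G and MT1F, 4.09% qualified. That set held 7 of the 9 measured members, and 4 of the 7 qualified, SLC39A10 among them. With the median over the probe sets of a gene in place of the brightest, 3 of the 6 qualified, MT1G being at -0.34, and the median of the 6 was -0.44. The 7.3% and 4.09% are by the brightest probe set, and the share of genes by the median over probe sets was not computed. None of the 9 measured members reached 2-fold against the control, which 0.883% of genes did at 12 h and 1.23% at 24 h in either direction. Signals are from whole cultures, so fewer cells with a transcript and less of it per cell cannot be told apart.

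At 12 h the same 6 genes went both ways, with 4 lower and 2 higher, and 48.4% of measured genes lower. Their median was -0.16 and none reached -0.5, as 4.96% of measured genes did. The step between the treated arrays, which leaves out the control array, was below 0 for 6 of 6, with 51.7% of all measured genes below 0. Its median was -0.43, against -0.01 over all measured genes, and MT2A and MT1F reached -0.5, as 3.09% of genes did. For MT1F this rests on 1 probe set, since the other was at -0.14 and the median over both at -0.33. None reached 2-fold in this step, against 0.324% of genes. MT2A alone among the members was lower by 0.5 or more against both other arrays, a pattern that 1.32% of measured genes had. All comparisons with the control rest on the same control array, and the 24 h array is shared by 2 of the 3.

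At the level of probe sets, 11 belonged to metallothionein members and 9 were above the floor on all arrays. All 9 were lower at 24 h than in the control, as were 49.7% of 21048 such probe sets of single genes, and 7 of the 9 were lower at 12 h. The 24 h differences formed a set from -0.74 to -0.68 (MT2A, MT1H, MT1G and the brightest probe set of MT1X) and a set from -0.40 to -0.13 (the second MT1X probe set and the 4 of MT1E and MT1F). Every one of the 9 has the suffix _x_at, which Affymetrix gives to sets whose probes may bind other transcripts. The 2 without it, of MT1G and MT1M, were under the floor. Members of the family are so alike that these 9 readings are not independent of one another, and which transcripts carried the signal was not tested.

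The arrays also differed in a sign of RNA integrity, with the 24 h array highest for ACTB and the 12 h array highest for GAPDH. The ratio of 3′ to 5′ signal of ACTB was 5.38 at 12 h and 6.55 at 24 h, against 4.95 in the control, and that of GAPDH was 1.25 at 12 h and 1.24 at 24 h, against 1.21 in the control. The part of RNA integrity in the lower metallothionein signal was not tested. Of the markers of other cells, COL1A1, COL3A1 and PECAM1 were also lower at 24 h, at -0.56, -0.58 and -0.62. The summed signal of the 5 fibroblast and endothelial markers was 1483 at 12 h and 1217 at 24 h, against 1792 in the control, with DCN and CDH5 under the floor on each array, and its part in the result was not tested. The summed signal of the 6 epithelial markers was 69340 at 12 h and 70110 at 24 h, against 72450 in the control, while KRT19 among them was at -0.54 and -0.60.

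One further metallothionein, MT1HL1, an intronless copy on chromosome 1, had 2919.7 signal units at 12 h and 1816.7 at 24 h, against 2884.2 in the control (211456_x_at). With 0.02 at 12 h and -0.67 at 24 h its course was close to that of MT2A. The probe set of MT1HL1 also has the suffix _x_at, so its signal may include that of other metallothionein transcripts, which was not tested. Of the other 9 metallothionein genes and pseudogenes listed, only MT3 and MT4 had a probe set of their own. MT3, the growth inhibitory factor of brain, had 38.9 units at 12 h, 72.5 at 24 h and 28.9 in the control, crossing the floor on the 24 h array alone. MT4, a metallothionein of stratified epithelia, stayed under it.

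The 7 metallothionein members lie in a tandem cluster on chromosome 16 (GRCh38.p14), between MT4, which starts at 56565073, and MT1X, which ends at 56684196. In chromosomal order the 24 h differences were -0.74 for MT2A (56608584 to 56609497), -0.13 for MT1E (56625781 to 56627112), -0.30 for MT1F (56657959 to 56659303), -0.69 for MT1G (56666730 to 56668065), -0.70 for MT1H (56669814 to 56671129) and -0.68 for MT1X (56682470 to 56684196). By these brightest probe sets the larger differences stood at both ends of the measured members and the smaller ones between them. The second probe sets of MT1X and MT1E, at -0.39 and -0.40, were nearly equal, so the order depends on the probe set. Outside the cluster, the nearest measured protein-coding genes were BBS2, a subunit of the ciliary BBSome, at -0.04, OGFOD1, a prolyl hydroxylase of a ribosomal protein, at 0.10 and NUDT21, a cleavage and polyadenylation factor, at -0.22 on the MT4 side. On the MT1X side, NUP93, a nucleoporin, was at -0.21, HERPUD1, a reticulum stress protein, at 0.47 and NLRC5, a regulator of MHC class I genes, at 0.10. The 6 flanking genes stood between -0.22 and 0.47, and among the measured members MT1E, at -0.13, lay within that span. The flanking genes were chosen by position.

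**Figure D2:**
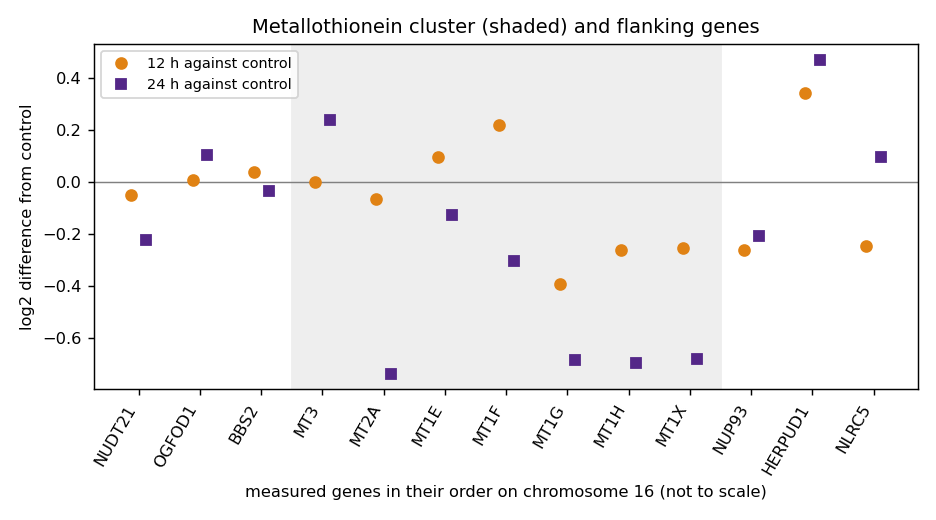
Log2 difference from the control at 12 h (circles) and 24 h (squares) for measured genes in their order on chromosome 16, with the metallothionein cluster shaded; spacing is not to scale and each point is 1 pair of arrays. MT2A, MT1G, MT1H and MT1X stand between -0.74 and -0.68 at 24 h, MT3 at 0.24 from the floor, and the flanking genes between -0.22 and 0.47.

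MTF1 (Entrez gene 4520, chromosome 1, 37809574 to 37859592) gave readings that depended on the probe set. The brightest, 227150_at, had 994.9 signal units at 12 h and 1045.5 at 24 h, against 1019.8 in the control, or -0.04 and 0.04. A second, 205323_s_at, had 445.8 units at 12 h and 393.8 at 24 h, against 282.5 in the control, or 0.66 and 0.48. The remaining 1, 205322_s_at, had 275.1 units at 12 h and 310.1 at 24 h, against 187.2 in the control, or 0.56 and 0.73. Both dimmer probe sets were thus higher on each treated array, and the brightest was level. As the median over the 3 probe sets MTF1 was at 0.56 at 12 h and 0.48 at 24 h. By the brightest probe set 5.13% of measured genes were higher by 0.5 or more at 12 h and 6.15% at 24 h. MTF1 was not among them at either time. Its median over probe sets exceeded 0.5 at 12 h and not at 24 h, and the share of genes by that median was not computed.

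SLC30A1 (Entrez gene 7779, chromosome 1, 211571568 to 211579161), the zinc exporter that MTF1 turns on, was close to its control level. Probe set 212907_at had 4616.4 signal units at 12 h and 4421.9 at 24 h, against 4779.6 in the control, or -0.05 and -0.11. A second probe set, 228181_at, had 770.1 units at 12 h and 759.8 at 24 h, against 868.8 in the control, or -0.17 and -0.19, and the other, 242716_at, was under the floor. The exporter and the metallothioneins share MTF1 as a known activator, and at 24 h the exporter stood at -0.11 beside a metallothionein median of -0.68. The activity of MTF1 was not measured, and its part in either value was not tested.

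SLC39A10 (Entrez gene 57181, chromosome 2, 195613029 to 195737700), an importer of zinc at the plasma membrane, was lower at both times. Its 1 probe set, 225295_at, had 6316 signal units at 12 h and 5325.2 at 24 h, against 7757.2 in the control, or -0.30 and -0.54. The 24 h signal was 68.6% of the control's. The order was control, 12 h, 24 h, as for MT1X, MT1G and MT1H, with no second probe set to set beside it. Together with the 4 metallothioneins, 5 of the 9 measured members were at -0.5 or lower at 24 h, against 7.3% of all measured genes.

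**Figure D3:**
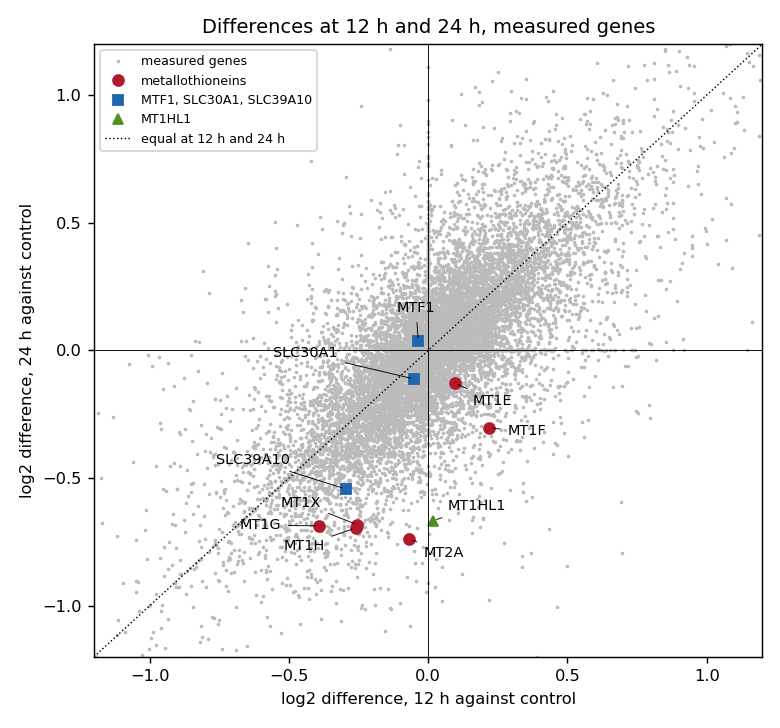
Log2 difference at 24 h against that at 12 h for measured genes (grey, those within the axes), with the members and MT1HL1 marked; both axes use the same control array, so the axes are not independent, and the dotted line marks equal values. MT2A and MT1HL1 stand near 0 at 12 h and at -0.74 and -0.67 at 24 h, and MTF1 and SLC30A1 stand near 0 on both axes. Each gene is shown by its brightest probe set, and the dimmer probe sets of MTF1, not shown, were higher at both times.

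Of 9 further SLC30 exporters 5 were measured, and their median was 0.04 at 12 h and 0.13 at 24 h. SLC30A5, an exporter of the secretory pathway, was at 0.21 at both times, SLC30A9 at 0.22 and 0.13, SLC30A6 at 0.04 and 0.10, and SLC30A7 at -0.12 and -0.11. A probe set of SLC30A5 with nearly as much signal, 232432_s_at, was at 0.02 and -0.03. The dimmer ones of SLC30A5 ranged from -0.47 to 0.32 at 12 h and from 0.01 to 0.24 at 24 h. SLC30A3, a transporter of synaptic vesicles, had 14.5 signal units at 12 h, 132.4 at 24 h and 54.8 in the control, so it exceeded the floor on the 24 h array alone. With the control and 12 h signals set to the floor, its 24 h difference from each was 1.11, which is a lower limit.

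Of 13 other SLC39 importers 10 were measured, their median was -0.01 at 12 h and -0.04 at 24 h, and none reached 0.5 either way. The lowest was SLC39A8, an importer of zinc and manganese, which had 4357.4 signal units at 12 h and 4301.5 at 24 h, against 6047.1 in the control (209267_s_at), or -0.47 and -0.49. A second probe set of it, 219869_s_at, gave -0.40 and -0.37. SLC39A11 was at -0.41 and -0.15, SLC39A1 at -0.04 and -0.32, and SLC39A13 at -0.03 and -0.20. On the higher side SLC39A14, an importer induced in inflammation, was at 0.21 and 0.25, SLC39A3 at 0.20 and 0.06, SLC39A7, which releases zinc from the reticulum, at 0.01 and 0.17, and SLC39A4 at 0.20 and -0.04. Unlike the metallothioneins, SLC39A8 had nearly the same signal on both treated arrays.

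Copper, the other metal held by metallothioneins, has its own transporters and chaperones, and 9 of 9 listed genes were measured. Their median was 0.20 at 12 h and 0.16 at 24 h. SLC31A1, the copper importer CTR1, had 3030.6 signal units at 12 h and 3550.7 at 24 h, against 1951 in the control (203971_at), or 0.64 and 0.86. Its other probe sets stood at 0.85 and 0.65 (235013_at) and at 0.65 and 0.46 (236217_at), so all 3 were higher on both treated arrays. By gene it was the 1 of the 9 that was higher by 0.5 or more, at either time. SLC31A2, the related transporter CTR2, had 823.8 units at 12 h and 1027.1 at 24 h, against 1401.5 in the control (204204_at), or -0.77 and -0.45. The copper chaperones CCS, at 0.29 and 0.44, COX17, at 0.30 and 0.39, and COMMD1, a factor of copper export, at 0.25 and 0.35, were higher at both times by less than 0.5. A brighter probe set that COX17 shares with POPDC2, 203880_at, was at 0.09 and 0.04. ATP7A, the copper-exporting ATPase, was at -0.03 at both times. ATOX1, a copper chaperone and, with SLC31A2 and ATP7A, the other of the 3 genes below 0 at 24 h, was at 0.20 at 12 h and -0.10 at 24 h.

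**Figure D4:**
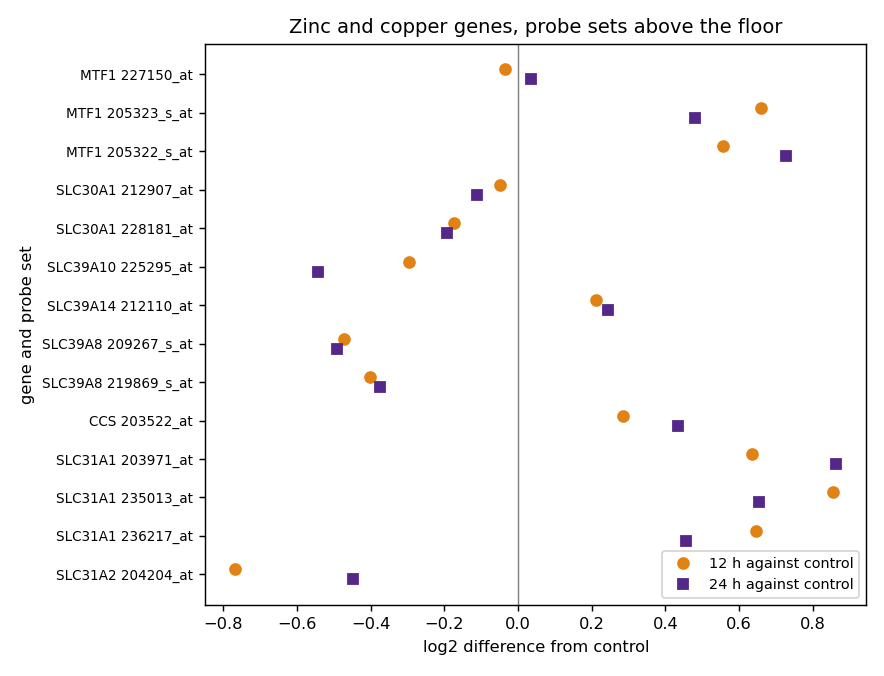
Log2 difference from the control at 12 h (circles) and 24 h (squares) for every probe set above the floor on all arrays of MTF1, SLC30A1, SLC39A10 and 5 further zinc and copper genes. The probe sets of SLC31A1 stand between 0.46 and 0.86, those of MTF1 spread from -0.04 to 0.73, and SLC39A10 stands at -0.30 and -0.54.

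Genes whose differences were nearest those of MT2A were found among 7565 genes with 2 or more probe sets and signal above the floor on all arrays, by the Euclidean distance over the 12 h and 24 h differences from the shared control. They were ZNF438, a zinc finger protein, at -0.11 and -0.76, NUDT3, a diphosphoinositol phosphatase, at -0.04 and -0.70, DIPK1B at -0.05 and -0.79, SLC2A12, a glucose transporter, at 0.00 and -0.72, and BHLHE40, a circadian and hypoxia-responsive repressor, at -0.15 and -0.71. Likeness over 3 arrays is a description only. For 4 of the 5 a single probe set was above the floor on all arrays, and the 3 of NUDT3 ranged from -0.70 to -0.02 at 24 h.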

How the data were processed

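RNA of 3 cultures, 1 per group, was read on Affymetrix arrays. The deposited intensity of each probe set is linear, and the submitters' processing notes name MAS5, with no version or settings given in the sources used here. On every array the 2% trimmed mean was 500.1, and no further scaling was applied. The number of arrays limits the precision. Between 27227 and 27388 of 54675 probe sets exceeded the floor of 61.4 on an array.

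The platform annotation named the probe sets, giving 1 gene for 41097, several for 1801 and none for 11777. Of the first kind, 41043 matched a current RefSeq gene by Entrez identifier. A gene took its probe set with the highest mean signal, and log2 differences were taken after setting signals under the floor to it. The procedure was tested on simulated data, with planted changes larger than any difference of a member here. That test does not bear on differences as small as those of the members. Promoters came from RefSeq windows, which matched 6 of the 10 members by symbol. Tools were Python 3.11.15, pandas 2.3.3, R 4.3.3 and limma 3.58.1.

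The members, lists and rules were chosen with earlier results of these data known. All members were named whatever their value, and of the SLC30, SLC39 and copper lists up to 4 genes each way by mean difference. Alternatives covered scaling, floor, probe set choice and size threshold. No replicates exist, so no test was run.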

Additional observations from a re-analysis of the deposited data

Results flagged for a closer look

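MT1E, MT1F and MTF1 had differences from the control of opposite sign at 12 h and 24 h. At 24 h against 12 h MT1E was at -0.22, MT1F at -0.52 and MTF1 at 0.0716. These differences rest on 1 array at each time and on a shared control, and the difference between the times was not tested. For MT1E and MT1F the second probe set was lower at both times, and for MTF1 the other probe sets were higher at both times.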

How the results depend on the processing

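Without replicates, a value was counted as moved when it differed by at least 0.18, the robust SD of 24 h against 12 h over measured genes, which holds real change as well, and a count when it differed by over 1.5 times. Of 225 gene values under the alternatives, 6 moved and 2 changed sign, all with the median over probe sets. Most of the 225 had little or no room to move, so these counts do not measure stability. The brightest probe sets of the measured members lay above every floor tried, and no member probe set was shared with another gene. MT2A, MT1H and SLC39A10, with 1 probe set each, could not change with the median over probe sets either. With that median MT1E at 12 h was -0.05 and MTF1 at 12 h was 0.56, MTF1 at 24 h was 0.48, MT1F was 0.00 at 12 h and -0.33 between the treated arrays, and MT1G, with a probe set under the floor, was -0.20 at 12 h and -0.34 at 24 h. The metallothionein median at 24 h became -0.44. Under median centring, quantile normalization and cyclic loess 6 of 6 metallothioneins were lower at 24 h, and no setting moved the median of all genes by over 0.1. With transcript-specific probe sets no metallothionein was measured, so no median exists. No paired analysis was possible because each group held 1 array, and leaving out an array leaves no comparison.

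Counts over all genes depended on the floor and the threshold. At 2-fold, 55 genes were higher and 54 lower at 12 h, 73 and 79 at 24 h, and 18 and 22 between the treated arrays, and 163 were lower by 0.5 at 24 h against both other arrays. In that order the floor at the 25th percentile gave 718, 813, 748, 894, 715, 774 and 936, the floor at the 65th percentile 26, 18, 35, 28, 5, 1 and 49, and no floor with a pseudocount of 1 gave 1622, 1789, 1639, 1877, 1715, 1753 and 1826. The median over probe sets gave 16 lower at 12 h, 48 higher and 39 lower at 24 h, 9 higher and 11 lower between the treated arrays, and 91 lower against both. At 1.5-fold the counts were 421, 383, 505, 607, 180 and 236.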
